A study of Mus musculus with 8 samples.

Results

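The ribosome biogenesis and Myc growth genes are 34 genes for Myc and for proteins that make ribosomes in the nucleolus. They were chosen by name from a list, and all 34 were found among the 16649 genes of a single-cell RNA data set of mouse CD4 T cells. The cells came from the spleens of female mice aged 10 weeks, were cultured in RPMI medium and harvested at day 3, and carried either a knockout of Gpr65 (KO) or the wild-type gene (WT). The 4 groups were KO Th22, KO Th17, WT Th22 and WT Th17, each with 2 libraries numbered 1 and 2. The medium of every group held 20 ng/ml of IL-1b and 20 ng/ml of IL-23. IL-6 was at 40 ng/ml for Th22 and at 25 ng/ml for Th17. FICZ, which activates the aryl hydrocarbon receptor, was given at 400 nM to Th22 cultures alone, so the polarizations differed in both agents. The labels give the strain only as GPR65 and do not say how the knockout was made, nor whether 2 libraries of a group came from separate animals, so a p-value here reflects only how far these libraries scatter, and that scatter may be technical.

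Ribosome production starts in the nucleolus, where RNA polymerase I transcribes the precursor of the ribosomal RNAs. Small nucleolar ribonucleoproteins modify that precursor, and large sets of assembly factors fold and cut it into the small and the large subunit. The transcription factor Myc, with its partner Max, binds E-box sequences and is known to drive many genes of this pathway. In T cells Myc is induced by antigen receptor signalling, and cells enlarge and fill with ribosomes before they divide.

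The canonical E-box is the palindrome CACGTG, so a single search covers both strands. It was sought in RefSeq promoter windows of GRCm38.p6 that run from 250 bases before to 50 bases after each annotated start, and 28 of the 34 members had such a window. The windows of 6 members held it, which is 21.4% of the members with a window. Over the 10125 tested genes with a window the share was 11.7%, and over all 27025 genes with a window 8.09%. The stretches of 4 members are shown because the E-box is the sequence that Myc is known to bind. The capitals mark the E-box, and each stretch is 30 bases long, written 5′ to 3′ on the strand of the gene.
Nop2: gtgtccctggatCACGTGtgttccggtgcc
Pes1: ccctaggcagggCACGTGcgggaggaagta
Nle1: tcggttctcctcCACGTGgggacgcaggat
Wdr43: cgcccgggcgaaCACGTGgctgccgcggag

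The Nop2 stretch lies at chr6:125131811-125131840 on the plus strand, with the motif 60 bases before the start on which the RefSeq window is built. The Pes1 stretch lies at chr11:3963965-3963994 on the plus strand, and its motif begins at base 3 counted from that start. The Nle1 stretch lies at chr11:82908355-82908384 on the minus strand, with the motif at base 24. The Wdr43 stretch lies at chr17:71616220-71616249 on the plus strand, with the motif at base 18. GENCODE gene models place the starts of Nop2, Nle1 and Wdr43 at other bases, so these positions hold for the RefSeq windows. Utp20 and Mybbp1a also held the motif, too close to the end of the window for a full stretch. A match describes the letters of the window and no binding.

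The libraries held 9969 to 15119 kept cells and 33826527 to 58895019 UMIs, with medians of 2354 to 4142 UMIs per cell. Pairs of libraries shared 23 to 67 cell barcodes. Gpr65 stood at 1.67, 1.61, 0.858 and 0.866 CPM (a gene's UMI count scaled to a common library total) in KO Th17 1, KO Th17 2, KO Th22 1 and KO Th22 2, against 75.8, 71.5, 56.4 and 51.7 CPM in WT Th17 1, WT Th17 2, WT Th22 1 and WT Th22 2. The T cell markers (7 of 7 measured) summed to 2574 to 3149.5 CPM in KO and 2827 to 3534 CPM in WT libraries. Ighm, the heavy chain of immunoglobulin M and a B cell gene, was picked out after its values were seen. It stood at 26.9 to 31.9 CPM in KO and at 34.7 to 46.7 CPM in WT libraries, with ranges apart, and averaged 33.2 CPM in cluster 1 and 31.3 CPM in cluster 3, against 44.8 CPM in cluster 0 of the deposited clusters. Its part in the results was not tested. Myeloid markers (3 of 5) and erythroid markers (2 of 3) summed to less than 1 CPM in every library.

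Between T cell states the members differed widely. The deposited cell table places each cell in 1 of 12 clusters. Cluster 0 (39805 cells) was the largest, and cluster 1 (29365 cells) was higher than it in 10 of 10 activation markers and in 0 of 9 resting markers, so they are called resting-like and activated-like here. Cluster 3 (8862 cells) was higher than cluster 0 in 7 of 7 cycling markers and is called cycling-like. Cluster 1 was also higher than cluster 0 in 7 of 7 cycling markers, and cluster 3 in 9 of 10 activation markers, so the names rest on size. The cycling markers summed to 1781 CPM in cluster 3, 321 CPM in cluster 1 and 246 CPM in cluster 0. The activation markers summed to 1028, 1670 and 869 CPM in the same order. The clusters were made from the expression of these same cells, so the values that follow describe them and carry no test.

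In activated-like over resting-like cells the median of the 34 member log2 ratios was 1.29, against 0.10 over all 10923 genes compared. The ratio exceeded 1, a doubling, for 27 of 34 members and for 3.24% of all genes. For 33 of 34 members it was positive in all 8 libraries, which held for 32.5% of all genes. Cluster 0 gave the lowest level of 28 members among the 12 clusters. The highest level fell in cluster 11 for 9 members, in cluster 4 for 9, in cluster 1 for 9 and in cluster 7 for 7. Thinned to 1500 UMIs per cell, the median activated-like cell held 8 member UMIs (10th to 90th percentile 3 to 14), the median cycling-like cell 6 (3 to 11) and the median resting-like cell 5 (2 to 9).

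**Figure D1:**
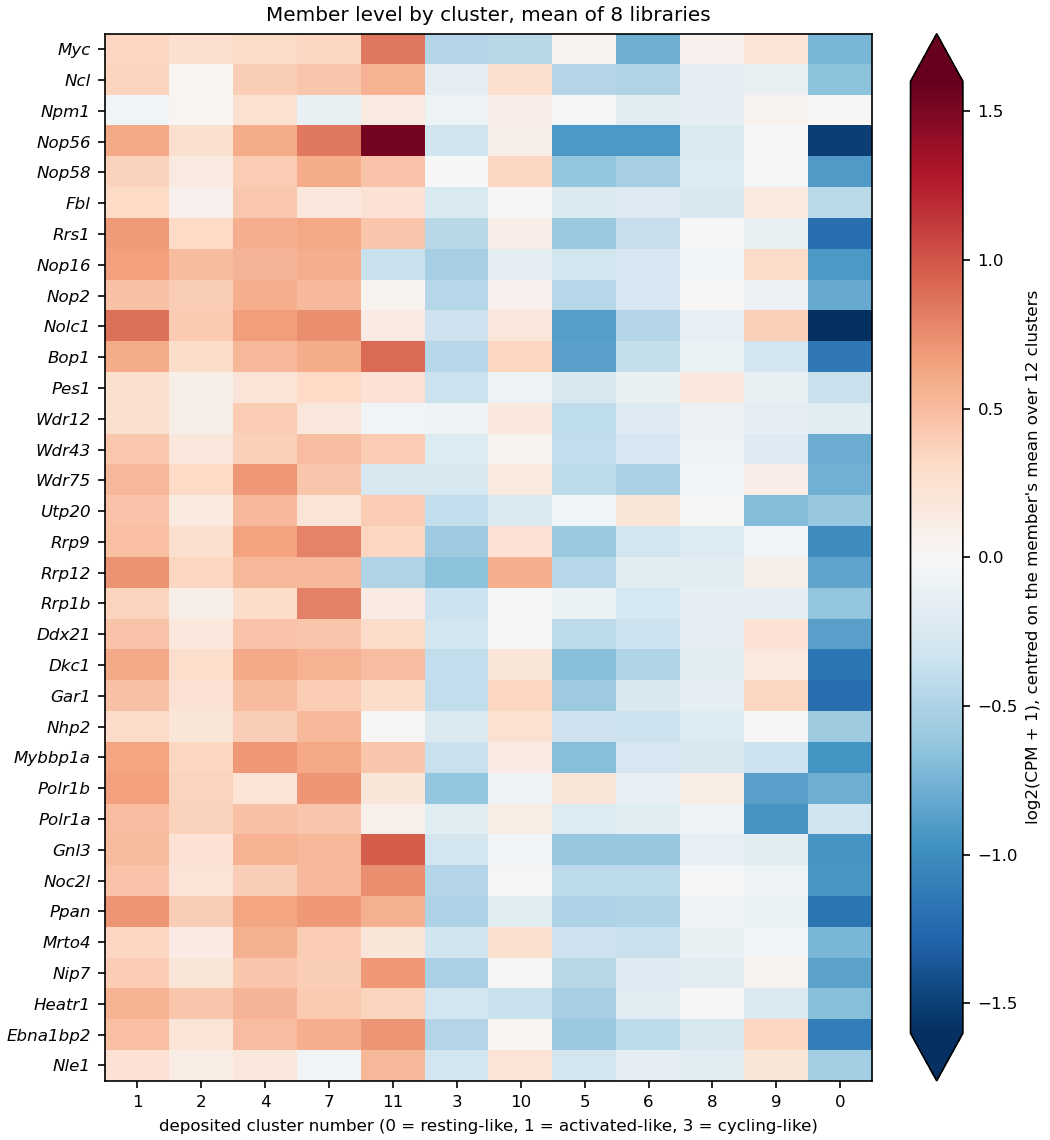
Level of each member down the page in each deposited cluster across it, as log2(CPM + 1) centred on the member's mean over the 12 clusters, where each cell of the map is the mean of 8 libraries. Cluster 0, at the right edge, is the lowest for 28 of 34 members, and Npm1 is nearly flat.

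Myc itself stood at 31.1 to 44.0 CPM (median 40.9) in activated-like cells over the 8 libraries, against 11.4 to 29.0 CPM (median 16.7) in resting-like cells. The ranges did not overlap, and the mean log2 ratio was 1.12 ± 0.36 (SD, n = 8). Polr1a, the catalytic subunit of RNA polymerase I, stood at 17.5 to 30.6 CPM (median 22.9) in activated-like cells and at 9.95 to 16.7 CPM (median 11.9) in resting-like cells. Polr1b, its second-largest subunit, was scarce, at 4.01 to 6.63 CPM (median 5.32) in activated-like and 0.648 to 3.28 CPM (median 0.964) in resting-like cells. The ranges of both subunits were apart, with mean log2 ratios of 0.81 ± 0.17 for Polr1a and 1.51 ± 0.36 for Polr1b (SD, n = 8).

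The largest ratio belonged to Nolc1, a chaperone of small nucleolar ribonucleoproteins that shuttles between nucleolus and cytoplasm. It stood at 99.5 to 168 CPM (median 123) in activated-like cells and at 14.8 to 33.3 CPM (median 18.5) in resting-like cells, a log2 ratio of 2.52 ± 0.26 (SD, n = 8). Nop56, a core protein of the box C/D particles that guide methylation of ribosomal RNA, stood at 131 to 235 CPM (median 166) in activated-like and 25.1 to 57.9 CPM (median 35.7) in resting-like cells, a ratio of 2.14 ± 0.28. Ppan, an assembly factor of the large subunit, stood at 43.5 to 81.3 CPM (median 55.8) in activated-like cells and 7.88 to 29.7 CPM (median 12.2) in resting-like cells, with a ratio of 1.98 ± 0.40. For each of these members the lowest activated-like library exceeded the highest resting-like library.

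Particles of the same kind did not move by the same amount. Among the box C/D proteins, Nop56 had the log2 ratio of 2.14, Nop58 had 1.27 ± 0.27 and Fbl, the methyltransferase itself, 0.75 ± 0.06 (SD, n = 8). Fbl stood at 119 to 167 CPM (median 135) in activated-like cells and at 70.0 to 96.2 CPM (median 81.9) in resting-like cells. The H/ACA proteins, which guide pseudouridylation, had ratios of 1.83 ± 0.36 for Dkc1, the pseudouridine synthase, 1.72 ± 0.29 for Gar1 and 0.89 ± 0.11 for Nhp2. Fbl and Nhp2 were thus the lowest of their particles among the members.

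Within the PeBoW complex, which matures the large subunit, the spread was also wide. Bop1 had a log2 ratio of 1.76 ± 0.29, Pes1 of 0.61 ± 0.10 and Wdr12 of 0.42 ± 0.20 (SD, n = 8). Pes1 stood at 29.9 to 46.2 CPM (median 35.7) in activated-like cells and at 19.5 to 28.4 CPM (median 23.6) in resting-like cells, with ranges apart. Wdr12 stood at 49.8 to 72.5 CPM (median 63.8) in activated-like and 36.7 to 49.97 CPM (median 47.4) in resting-like cells, and its ranges overlapped. Of the other large subunit factors, Nle1 had 0.76 ± 0.23 and Rrs1 1.89 ± 0.31, and of the small subunit factors Utp20 had 1.09 ± 0.31 and Rrp9 1.47 ± 0.17. Nearest to a doubling on either side were Ncl (1.01) and Nhp2 (0.89).

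Npm1 was the exception. It encodes nucleophosmin, an abundant nucleolar chaperone, and stood at 2041 to 2540.2 CPM (median 2427) in activated-like cells and at 2053 to 2742 CPM (median 2440.0) in resting-like cells. The log2 ratio was -0.06 ± 0.08 (SD, n = 8), and 1 of 8 libraries had the higher value in cluster 1. Npm1 has processed pseudogenes, so the assignment of its reads is uncertain. It made up 41.5% to 58.2% of the member UMIs of a library, so summed levels are given also without it. Ncl, nucleolin, the other abundant nucleolar protein of the list, stood at 667 to 1003 CPM (median 828) in activated-like cells and 362 to 435 CPM (median 414) in resting-like cells, with ranges apart.

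In cycling-like over resting-like cells the median log2 ratio was 0.39, against 0.07 over all genes. The ratio exceeded 1 for 2 of 34 members, against 3.75% of all genes, and 15 members were higher in all 8 libraries, against 21.5% of all genes. Nolc1 (1.21 ± 0.44), Nop56 (1.13 ± 0.41) and Nop58 (0.89 ± 0.33) had the largest ratios, and Npm1 (-0.10 ± 0.05), Pes1 (0.01 ± 0.14) and Wdr12 (0.08 ± 0.22) the smallest (SD, n = 8). Nop58 stood at 99.9 to 203 CPM (median 124) in cycling-like cells and at 53.8 to 83.1 CPM (median 72.0) in resting-like cells, with ranges apart. Myc stood at 15.4 to 33.8 CPM (median 20.5) in cycling-like cells, which overlaps its resting-like range above. With G1 cells alone the medians over the members were 1.31 for activated-like and 0.45 for cycling-like over resting-like cells. Cluster 10, in which 79.8% of cells were called G2/M, had a median ratio of 0.86, and cluster 2 had 1.11.

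**Figure D2:**
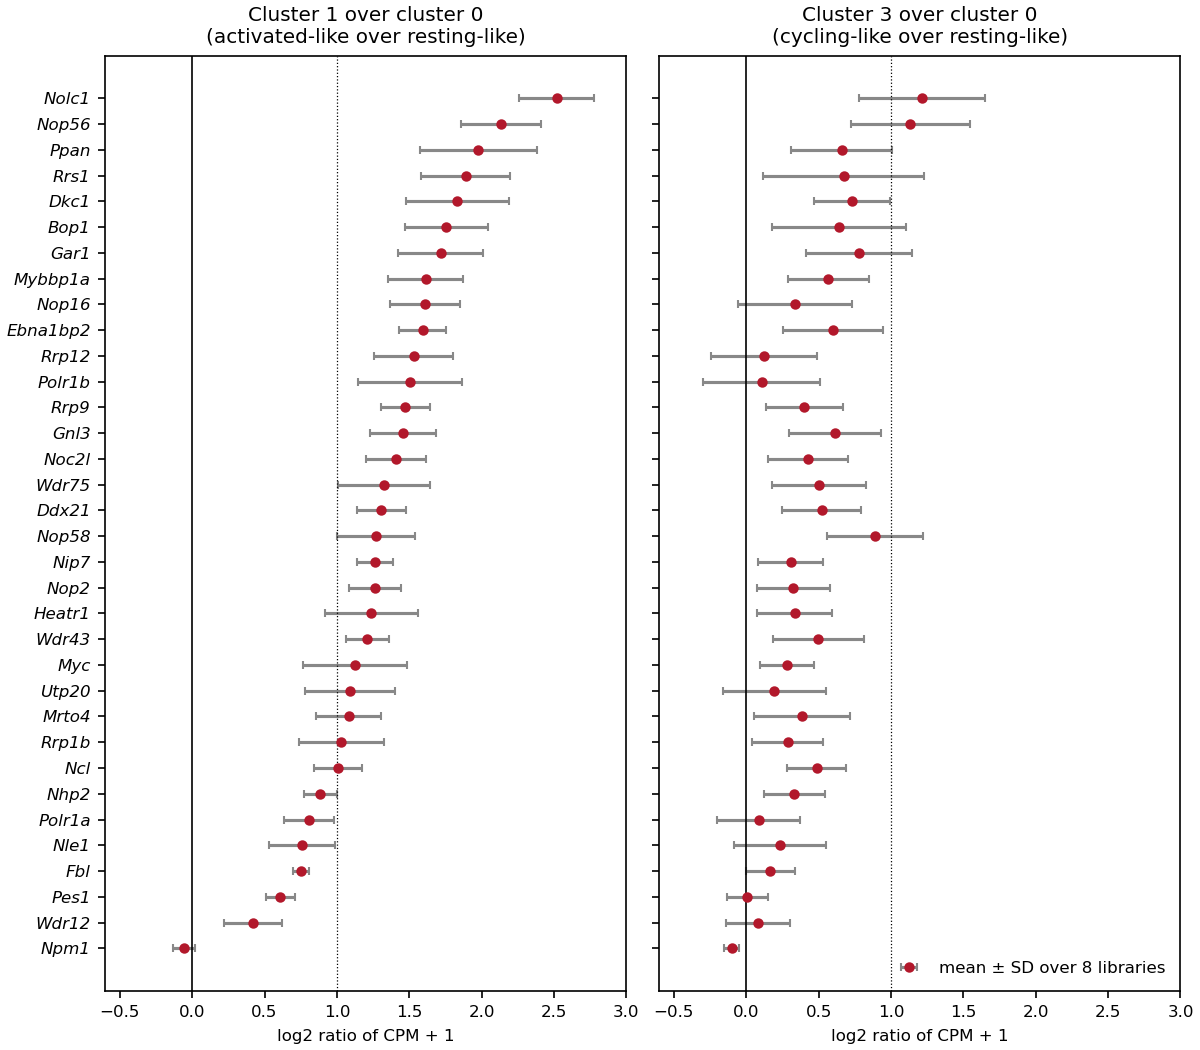
Log2 ratio of CPM + 1 for each member in cluster 1 over cluster 0 (left) and cluster 3 over cluster 0 (right). Points are means and bars SDs over 8 libraries, and the dotted line marks a doubling, which 27 members exceed at left and 2 at right, with Npm1 at the bottom of both panels.

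Across the 12 clusters, each member was set against the summed CPM of the other members on the log2 scale. Npm1 was always left out of that sum, in which abundant members weigh most. Pearson's r was highest for Dkc1 (0.99) and lowest for Npm1 (0.39), with Polr1a at 0.40 and Utp20 at 0.46. The clusters share libraries and differ in depth, so these values are descriptions. Outside the members, the genes of at least 10 CPM most like Myc over the 12 clusters were Fam136a (r = 0.95), Tomm5 (0.94) and Pcbp1 (0.91). The genes most like the summed members were C1qbp (0.99), Npm3 (0.98) and Hspd1 (0.98). With Npm1 left out of the sum they were Hspd1 (0.99), Pwp1 (0.97) and Snu13 (0.97).

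Within libraries, cells in S phase were compared with cells in G1. Phase was taken from the deposited S and G2/M scores, and 25.7% of cells lay within 0.02 of the border between phases. Such scores come from the expression of the same cells. The p-values therefore tell how steadily a member moved with the score over the libraries, and phase was not measured independently. In S over G1 cells 33 of 34 members rose and 0 fell in edgeR's quasi-likelihood test (adjusted p below 0.05), against 21.8% of 11293 genes higher and 24.6% lower. The median member log2 fold change was 0.30, against -0.03 over all genes. Nle1 was the member not called (0.11 ± 0.05, SE, adjusted p = 0.071 in edgeR). Polr1b is in a widely used S phase scoring list, and the sources used here do not give the genes behind the deposited score. Without Polr1b, 32 of 33 members rose.

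Nhp2 stood at 139.7 to 199.9 CPM in S cells (median 163) and at 106 to 157 CPM in G1 cells (median 129) over the 8 libraries. Its log2 fold change was 0.32 ± 0.02 (SE, edgeR adjusted p = 4.06e-18). Mrto4, a large subunit assembly factor, stood at 65.8 to 102 CPM in S cells (median 74.9) and at 46.8 to 77.5 CPM in G1 cells (median 56.0), with 0.38 ± 0.03 (adjusted p = 2.43e-17). The ranges of both members overlapped between phases, but each library had more in S than in G1 cells. Nop58 stood at 125 to 197 CPM in S cells (median 143) and at 85.3 to 150.3 CPM in G1 cells (median 101), with 0.46 ± 0.03 (adjusted p = 1.15e-16), and it too was higher in S cells of all 8 libraries.

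Nop56 had the largest fold change in S over G1 cells, 0.65 ± 0.05 (SE, edgeR adjusted p = 1.36e-08), and Npm1 the smallest, 0.10 ± 0.02 (adjusted p = 6.29e-06). Myc rose by 0.12 ± 0.04 (adjusted p = 0.0084), with 21.2 to 41.5 CPM in S cells (median 33.0) against 18.7 to 36.6 CPM in G1 cells (median 28.7). Ncl rose by 0.36 ± 0.03, Fbl by 0.18 ± 0.02, and Polr1a by 0.17 ± 0.05 (SE). Polr1b rose by 0.25 ± 0.10 (SE, edgeR adjusted p = 0.045), a call lost with no low-count filter, on thinned cells, within cluster 1 and when any 1 of 5 single libraries was left out (KO Th17 2, KO Th22 1, KO Th22 2, WT Th22 1 or WT Th22 2; 0.19 to 0.30 over all 8). With clusters 3 and 10 left out 33 of 34 members rose, against 19.5% of genes. Within the resting-like cluster alone 26 of 33 tested members rose, against 13.6% of genes, and within the activated-like cluster 30 of 34, against 16.9%. Myc passed in neither, at 0.01 ± 0.08 in resting-like and 0.13 ± 0.06 in activated-like cells. S cells had a median of 3192 UMIs and G1 cells of 2805, and with every cell thinned to 1500 UMIs 29 of 34 members rose, against 17.2% of genes.

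In G2/M over G1 cells the members moved both ways, as all genes did. In the same test 8 of 34 rose and 13 fell, against 24.4% and 28.3% of 11293 genes, with a median of 0.02. The share of members that rose was thus near the background. Nop58 rose most, at 132 to 211 CPM in G2/M cells (median 159.5) against the G1 values above, with 0.51 ± 0.03 (SE, edgeR adjusted p = 3.75e-17). Ncl stood at 534 to 909 CPM in G2/M cells (median 692) and at 424 to 693 CPM in G1 cells (median 548), and rose by 0.26 ± 0.03 (adjusted p = 5.89e-09). Nop56 rose by 0.42 ± 0.06 (adjusted p = 9.82e-06). Npm1 fell by 0.11 on the log2 scale (SE 0.02, adjusted p = 6.63e-07), with 1975 to 2520.0 CPM in G2/M cells (median 2333) and 2022 to 2532 CPM in G1 cells (median 2409), and was lower in G2/M cells of 6 of 8 libraries.

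Myc fell by 0.23 on the log2 scale in G2/M over G1 cells (SE 0.05, edgeR adjusted p = 0.00016), Polr1a by 0.23 (SE 0.07) and Polr1b by 0.46 (SE 0.16). Fbl fell by 0.11 (SE 0.03, adjusted p = 0.00067), but its CPM was lower in G2/M cells of only 4 of 8 libraries, and with every cell thinned the test no longer passed (-0.0989, adjusted p = 0.056). With clusters 3 and 10 left out, 19 members rose and 1, Npm1, fell, against 20.8% and 25.3% of genes. Within the resting-like cluster alone 3 rose and 3 fell, against 11.8% and 12.3%, and within the activated-like cluster 9 rose and 2 fell, against 16.9% and 17%. Without clusters 3 and 10 no call was made on Myc (-0.07 ± 0.07), Polr1a (-0.18 ± 0.09), Polr1b (-0.29 ± 0.21) or Fbl (-0.00 ± 0.04, SE). The fold changes of Myc and Fbl were thus nearer 0 there, and that of Polr1a was close to its value over all cells. Within the activated-like cluster alone Polr1b was called lower (-0.77 ± 0.28, SE, edgeR adjusted p = 0.026).

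**Figure D3:**
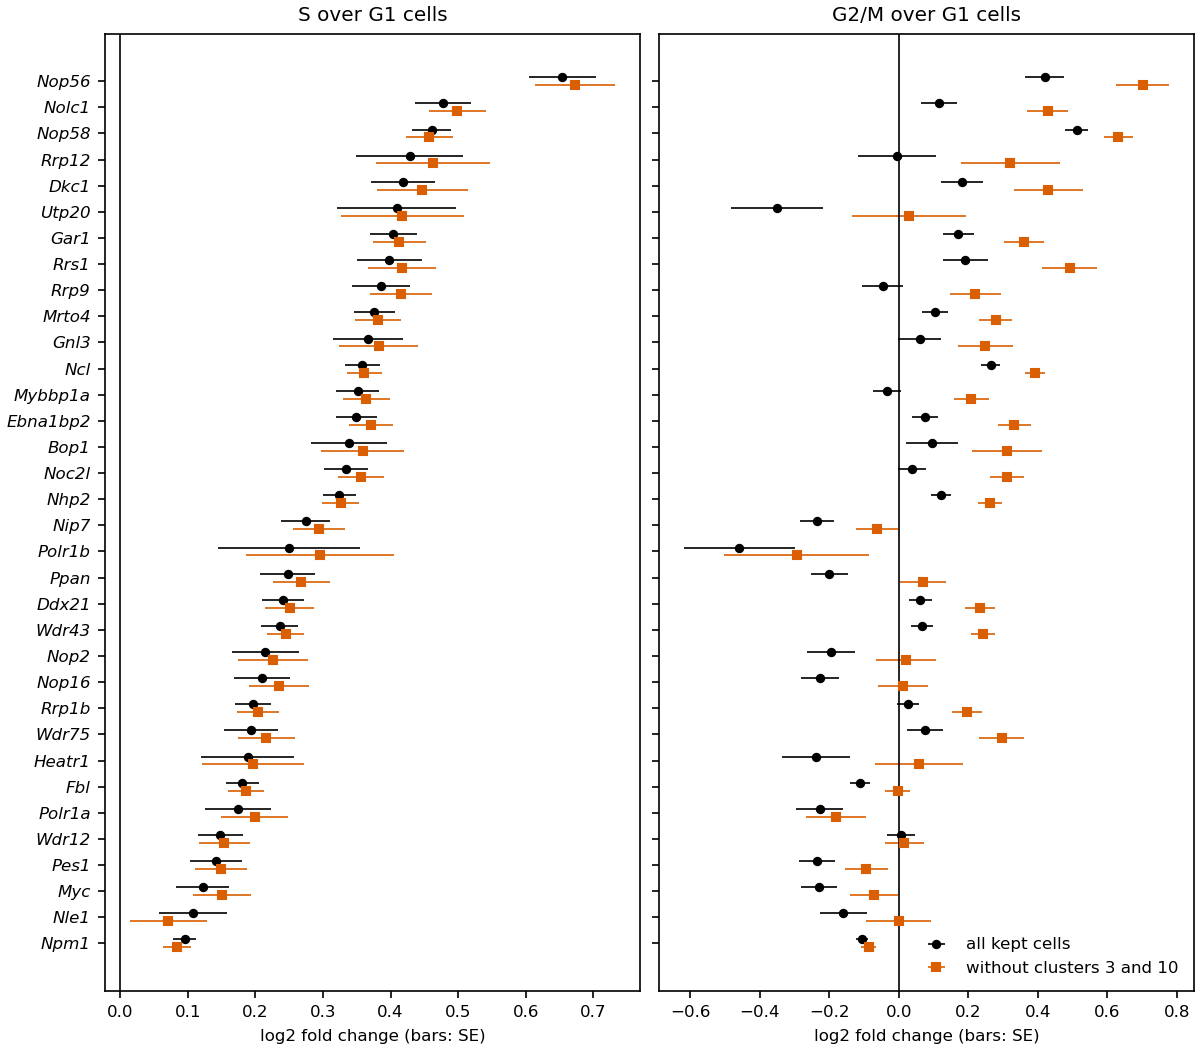
Log2 fold change of each member in S over G1 cells (left) and G2/M over G1 cells (right), with SE bars from edgeR. Black circles use all kept cells and orange squares leave out clusters 3 and 10. All points of the left panel lie above 0. At right 8 members rose and 13 fell with all kept cells, against 24.4% and 28.3% of all genes. Without those clusters 19 rose and 1 fell, against 20.8% and 25.3%.

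The pathway around the members was read from 6 lists. In S over G1 cells 12 of 13 genes of the box C/D and H/ACA particles and nucleolar chaperones rose, led by Tcof1, the treacle protein that serves RNA polymerase I (0.49 ± 0.03, SE, edgeR adjusted p = 2.67e-23). Of the small subunit processome 29 of 40 rose and 0 fell, and of the large subunit assembly factors 31 of 45 rose and 2 fell. Of the growth targets of Myc outside the ribosome 37 of 43 rose and 1 fell, among the higher ones Tfrc, the transferrin receptor (0.60 ± 0.04), and the cyclin-dependent kinase Cdk4 (0.38 ± 0.03). The RNA polymerase I machinery gave 8 of 18 higher and 2 lower. Over all 11293 genes 21.8% were higher and 24.6% lower. The medians of these lists were 0.31, 0.15, 0.16, 0.27 and 0.10, against -0.03 over all genes. In G2/M over G1 cells the same lists, of 13, 40, 45, 43 and 18 genes, gave 8, 11, 12, 20 and 4 higher. They gave 1, 7, 9, 12 and 4 lower. Over all 11293 genes 24.4% were higher and 28.3% lower. For the processome, large subunit and polymerase I lists the higher counts were thus near the background.

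In the Myc network, its partners and antagonists, 2 of 12 tested genes rose and 3 fell in S over G1 cells. These shares are near those of all genes, 21.8% and 24.6%. Mxd1 and Mxd4, which compete with Myc for Max, fell by 0.40 (SE 0.03, edgeR adjusted p = 7.51e-16) and 0.42 (SE 0.05, adjusted p = 2.97e-09) on the log2 scale. Mxd3, another gene of that family, rose by 2.84 ± 0.16 (adjusted p = 8.99e-16), and by 5.01 ± 0.14 in G2/M cells. Mxi1 fell by 0.08 (SE 0.03), and Max had -0.09 ± 0.04 (adjusted p = 0.058), Mnt -0.06 ± 0.05 and Mlx -0.02 ± 0.04, which were not called. Of the polymerase I regulators, Ubtf had 0.07 ± 0.03 and Rrn3 0.12 ± 0.06, not called, and the subunit Polr1c rose by 0.09 ± 0.03 (adjusted p = 0.02). In G2/M over G1 cells Max fell by 0.20 (SE 0.05, adjusted p = 0.00029) and Mxi1 by 0.20 (SE 0.04, adjusted p = 6.31e-05).

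Between genotypes, over all cells, no member was called. In KO over WT, over both polarizations, 0 of 34 members passed the edgeR test, against 1.41% of 13412 genes higher and 1.52% lower. Of the members 8 had an unadjusted p below 0.05, and DESeq2 called 3, Mrto4, Wdr75 and Rrp12, all higher, against 3.74% of genes higher and 2.92% lower. Counts at an unadjusted p, here and below, are given without the share over all genes. They are thus no result about the members. The log2 fold change was above 0 for 33 of 34 members, with a median of 0.33, against -0.00 over all genes. The smallest adjusted p was that of Mrto4 (0.42 ± 0.11, SE, edgeR adjusted p = 0.077). No member had all KO libraries on 1 side of all WT libraries, which 3.08% of genes had in the higher and 5.99% in the lower direction. In such sums fewer cells of a type and less RNA per cell cannot be told apart.

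The 2 KO libraries of each polarization differed from each other. Without Npm1 the members summed to 2486, 3352, 1879 and 2707 CPM in KO Th17 1, KO Th17 2, KO Th22 1 and KO Th22 2, against 2516, 1987, 2403 and 2102 CPM in WT Th17 1, WT Th17 2, WT Th22 1 and WT Th22 2. With Npm1 the sums were 5059, 5727, 4490.0 and 5249.9 CPM in the KO libraries and 4794, 4579, 4459 and 4303 CPM in the WT libraries, in the same order. KO library 2 exceeded KO library 1 in 33 of 34 members in Th17 (median log2 ratio 0.46) and in 32 of 34 in Th22 (0.60). Of all 6338 genes of at least 10 CPM, 44.8% and 35.8% were higher in number 2. In WT, number 2 was lower in 33 of 34 members in Th17 (median -0.33) and in 32 of 34 in Th22 (-0.21). Of the same 6338 genes, 35.8% in WT Th17 and 60.6% in WT Th22 were higher in number 2. For the members the numbers thus ran opposite ways in KO and WT.

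Myc stood at 21.2, 37.7, 19.4 and 34.5 CPM in KO Th17 1, KO Th17 2, KO Th22 1 and KO Th22 2, against 29.5, 27.2, 30.1 and 29.7 CPM in WT Th17 1, WT Th17 2, WT Th22 1 and WT Th22 2. Both KO libraries numbered 1 lay below and both numbered 2 above all WT libraries, and the log2 fold change over all libraries was -0.00 ± 0.22 (SE). Nop56 stood at 94.3, 160.4, 73.7 and 136 CPM in the KO libraries and at 105, 75.6, 104 and 82.5 CPM in the WT libraries, in the same order, with 0.38 ± 0.24. Ncl stood at 590.0, 768, 477 and 676 CPM in the KO libraries and at 651, 554, 623 and 576 CPM in the WT libraries, with 0.10 ± 0.14. For both genes the KO libraries numbered 2 were the highest of all and KO Th22 1 the lowest.

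Fbl stood at 109, 135, 97.9 and 125 CPM in the KO libraries and at 109, 90.4, 106 and 91.5 CPM in the WT libraries, in the order Th17 1, Th17 2, Th22 1 and Th22 2, with a log2 fold change of 0.28 ± 0.12 (SE). Polr1a stood at 18.2, 24.1, 12.6 and 17.3 CPM in KO and at 18.0, 13.9, 16.9 and 16.9 CPM in WT (0.16 ± 0.16). Polr1b stood at 2.69, 5.10, 2.05 and 3.77 CPM in KO and at 3.64, 2.77, 2.18 and 2.47 CPM in WT (0.35 ± 0.26). KO and WT libraries overlapped for all 3. Npm1 had 2572, 2375, 2611 and 2543 CPM in KO and 2277, 2592, 2055 and 2200.3 CPM in WT (0.18 ± 0.10), with number 1 the higher KO library in both polarizations.

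Leaving out KO Th22 1 gave 3 calls of 34 members in KO over WT over all cells, all higher, against 2.05% of genes higher and 1.9% lower. Leaving out any other single library gave 0. KO Th22 1 had the lowest member sum without Npm1 of the 8 libraries (1879 CPM), so leaving it out raises the summed KO level by itself.

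**Figure D4:**
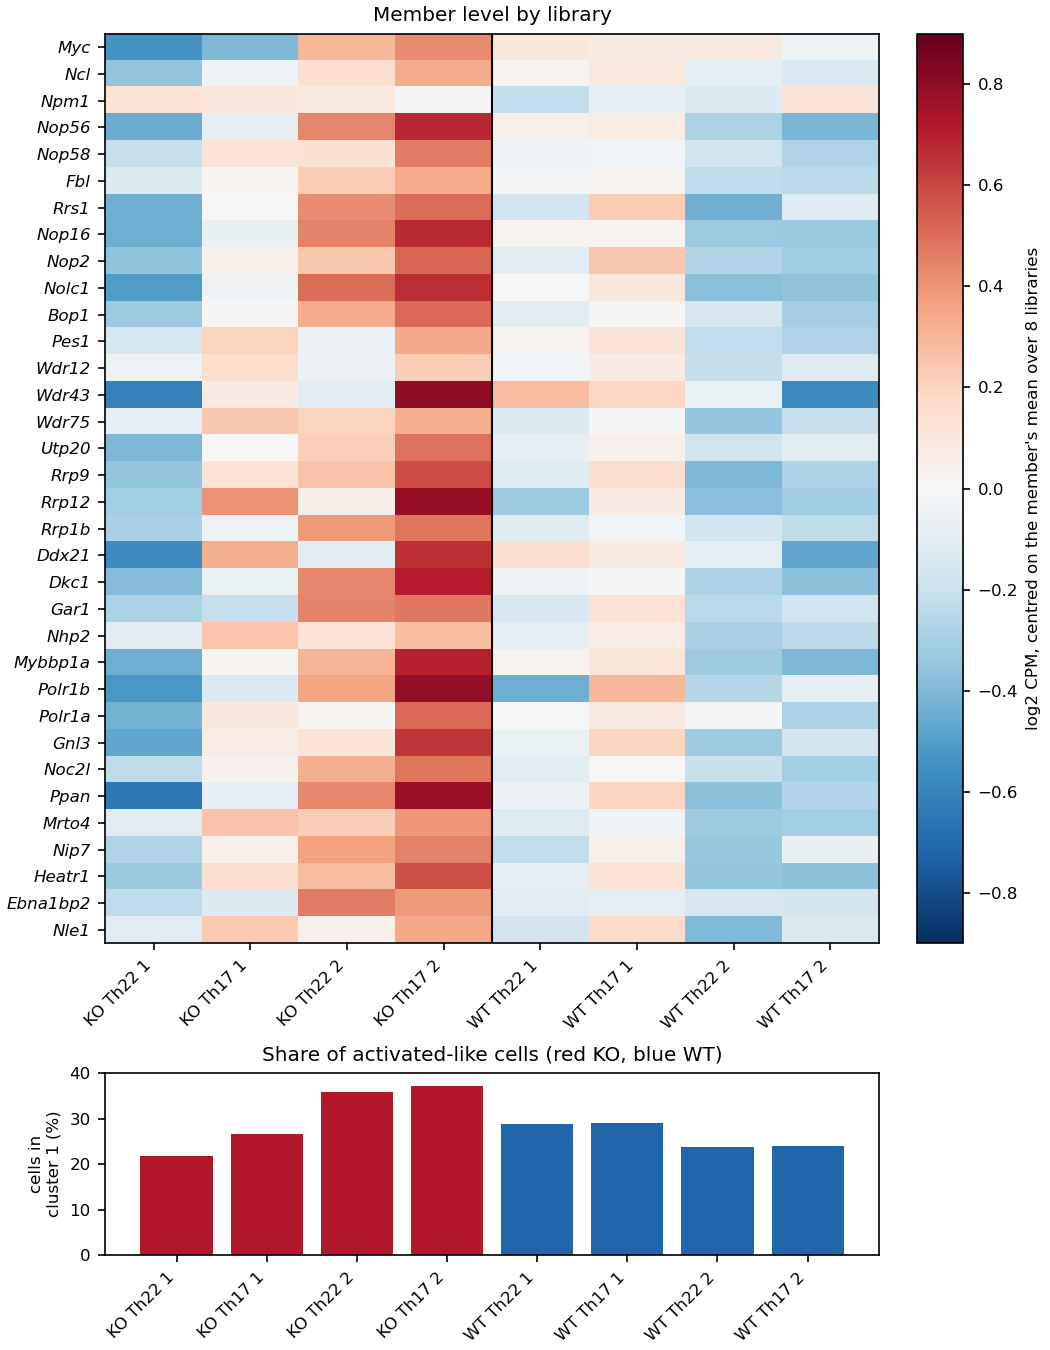
Level of each member down the page in each library across it, as log2 CPM centred on the member's mean over the 8 libraries, with the percent of cells in the activated-like cluster 1 as bars below (red KO, blue WT). KO Th22 2 and KO Th17 2 are high for most members and hold 35.9% and 37.2% of cells in cluster 1.

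Parts of the makeup of the libraries moved with these levels. Cluster 1 held 26.5%, 37.2%, 21.8% and 35.9% of cells in KO Th17 1, KO Th17 2, KO Th22 1 and KO Th22 2, and 29.0%, 23.95%, 28.8% and 23.7% in WT Th17 1, WT Th17 2, WT Th22 1 and WT Th22 2. The activation markers (10 of 10 measured) summed to 1141, 1537, 1014 and 1301 CPM in the same KO libraries and to 1328, 1126, 1277 and 1122 CPM in the WT libraries. Both were higher in number 2 than in number 1 of each KO polarization, as the members were. The resting markers (9 of 9) summed to 1466, 1341, 1314 and 1027 CPM in KO and to 1777, 1680.3, 1569.7 and 1711 CPM in WT. The gamma-delta and NK markers (5 of 6) summed to 39.1, 17.1, 42.5 and 20.3 CPM in KO and 19.7, 30.9, 21.0 and 34.3 CPM in WT, low where the members were high. KO libraries had 38.2%, 26.0%, 28.2% and 26.7% of cells in S and WT libraries 24.3%, 23.5%, 23.4% and 21.2%. The S share was thus higher in number 1 of every group, which is opposite to the members in KO and the same way in WT. The part of these shares in the member levels was not tested.

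The difference between the KO numbers was present inside clusters too. In activated-like cells the members without Npm1 summed to 3645, 4434, 2817 and 3711 CPM in KO and to 3559.6, 2896, 3339 and 2958 CPM in WT, in the same order. In resting-like cells the sums were 1485, 1781, 1332 and 1595 CPM in KO and 1292, 1261, 1408 and 1393 CPM in WT. In cycling-like cells they were 2209, 3331, 1489 and 2198 CPM in KO and 2133, 1675, 2056 and 1685 CPM in WT. In all 3 clusters number 2 was the higher KO library of its polarization.

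**Figure D5:**
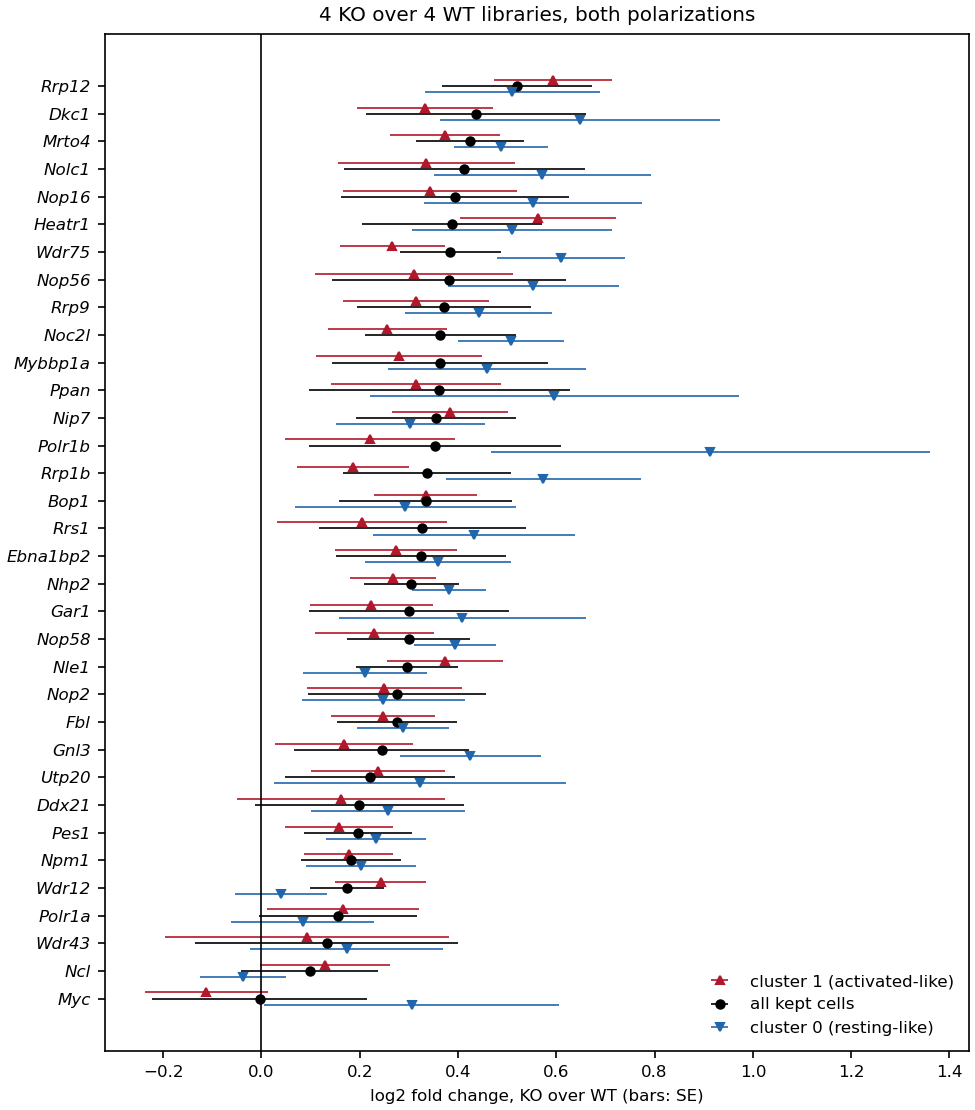
Log2 fold change of each member in the 4 KO over the 4 WT libraries, both polarizations, with SE bars from edgeR. Red triangles are activated-like cells (median 0.25), black circles all kept cells (median 0.33) and blue triangles resting-like cells (median 0.40); most points lie above 0, and Myc is near or below 0 in activated-like and all cells.

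Inside the resting-like cluster 2 of 34 members passed in KO over WT, against 0.634% of 11835 genes higher and 0.6% lower. Mrto4 stood at 54.7, 45.9, 46.1 and 45.3 CPM in the resting-like cells of KO Th17 1, KO Th17 2, KO Th22 1 and KO Th22 2, against 31.3, 36.2, 35.7 and 37.2 CPM in those of WT Th17 1, WT Th17 2, WT Th22 1 and WT Th22 2. Its log2 fold change was 0.49 ± 0.10 (SE, edgeR adjusted p = 0.046). Nhp2 stood at 125, 112, 105 and 101 CPM in KO and at 89.3, 89.1, 86.5 and 82.9 CPM in WT, with 0.38 ± 0.08 (adjusted p = 0.047). For both members every KO library exceeded every WT library, and number 1 was the higher KO library in both polarizations. How many of all genes were apart in this way inside cluster 0 was not counted, so the separation adds nothing to the calls. Both calls were lost on thinned cells (0.56 for Mrto4 and 0.42 for Nhp2), with the replicate number as a block (adjusted p = 0.062 and 0.059 in edgeR), with libraries summed by genotype and number (adjusted p = 0.61 and 0.68) and when any single library other than KO Th17 2 was left out. Leaving out each library gave log2 fold changes of 0.42 to 0.53 for Mrto4 and 0.35 to 0.42 for Nhp2. The median over the members was 0.40, against -0.00 over all genes.

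Inside the activated-like cluster 1 of 34 members passed, against 3.74% of 11386 genes higher and 3.69% lower, a share near the background. It was Rrp12, a ribosome assembly and export factor in yeast, at 14.7, 14.5, 8.53 and 9.60 CPM in the KO libraries and 10.0, 7.92, 6.71 and 6.82 CPM in the WT libraries, in the same order. KO and WT overlapped across polarizations but not within either, a separation that was not counted over all genes. The log2 fold change was 0.59 ± 0.12 (SE, edgeR adjusted p = 0.0097). The call on Rrp12 held with each single library left out and was lost with libraries summed by genotype and number (0.60, edgeR adjusted p = 0.069). The count of calls was 14 of 34 without KO Th22 1, all higher, against 5.01% of genes higher and 4.23% lower. It was 2 without KO Th17 1 or WT Th22 1, against 2.61% and 2.52% of genes higher. KO Th22 1 had the lowest member sum without Npm1 of the 8 libraries in cluster 1 (2817 CPM) and in cluster 3 (1489 CPM). Leaving it out raises the summed KO level by itself, so counts without it are no separate result. Inside the cycling-like cluster 0 of 33 tested members passed the edgeR test, against 0.255% and 0.174% of 9785 genes, with 8 at an unadjusted p below 0.05, a median of 0.43 and 4 calls without KO Th22 1, against 0.653% of genes higher.

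Of the pathway lists, the small subunit processome had 1 of 40 tested genes called in KO over WT over all cells, Mphosph10 (0.41 ± 0.08, SE, edgeR adjusted p = 0.031), and the large subunit list 1 of 45, Ddx56 (0.42 ± 0.09, adjusted p = 0.046). The growth targets of Myc outside the ribosome had 3 of 43, the nucleoside diphosphate kinase Nme1 (0.46 ± 0.08, adjusted p = 0.023), the DNA repair enzyme Apex1 (0.57 ± 0.12, adjusted p = 0.044) and the mitochondrial chaperonin Hspe1 (0.32 ± 0.07, adjusted p = 0.048). All 5 were higher in KO. Over all 13412 genes 1.41% were higher and 1.52% lower, so 1 call among 40 or 45 genes is near the background. The Myc network had 0 of 13 called, the polymerase I machinery 0 of 18 and the particle list 0 of 13. Polr1c had 0.32 ± 0.07 (edgeR adjusted p = 0.05) and Mxd1 -0.32 ± 0.11 (adjusted p = 0.15). Max, Mnt, Mxd4, Mxi1, Mlx, Ubtf and Rrn3 lay between -0.18 and 0.14.

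Between polarizations, over both genotypes, 0 of 34 members passed the edgeR test in Th22 over Th17, against 1.01% of 13412 genes higher and 0.925% lower, with 1 member at an unadjusted p below 0.05 and 0 called by DESeq2. The median was -0.08, against 0.00 over all genes. No member had its Th22 and Th17 libraries apart, as 1.39% of genes had in the higher and 6.58% in the lower direction. From the levels above, Myc had 0.07 ± 0.22, Ncl -0.02 ± 0.14, Npm1 0.02 ± 0.10, Nop56 -0.02 ± 0.24, Fbl 0.03 ± 0.12, Polr1a -0.11 ± 0.16 and Polr1b -0.33 ± 0.26 (log2, SE).

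Libraries of the same genotype and number deviated together, so this comparison was also run with genotype and number as a block. Then 4 of 34 members were called, all lower in Th22, against 6.04% of genes lower and 5.83% higher. The block was set from these same libraries, and the members deviated together strongly (r = 0.92 in KO, 0.59 in WT). Without it no member was called, so the 4 calls are descriptions. Gnl3, nucleostemin, stood at 68.8 and 103 CPM in KO Th22 against 99.6 and 148 CPM in KO Th17, and at 91.0 and 76.2 CPM in WT Th22 against 108 and 84.1 CPM in WT Th17 (libraries 1 and 2). It was lower in Th22 in 4 of 4 pairs, with -0.27 ± 0.05 (SE, edgeR with the block, adjusted p = 0.01). Rrp12 had -0.39 ± 0.09 (adjusted p = 0.022), Rrp9, a protein of the U3 particle, -0.21 ± 0.06 (adjusted p = 0.038), and Ppan -0.23 ± 0.06 (adjusted p = 0.042).

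Inside the clusters 0 members were called by edgeR in Th22 over Th17 without the block, against 0.372% and 0.33% of genes higher and lower in cluster 0, 1.48% and 1.59% in cluster 1 and 0.327% and 0.245% in cluster 3. Unadjusted p was below 0.05 for 3, 1 and 2 members. With the block Nop56 (0.40 ± 0.06, SE, edgeR adjusted p = 0.0019) and Ebna1bp2 (0.34 ± 0.09, adjusted p = 0.028) rose in resting-like cells, against 4.94% of genes higher and 4.86% lower. Gnl3 and Rrp12 fell by 0.29 (SE 0.06) and 0.47 (SE 0.11) in activated-like cells, against 4.5% of genes lower and 3.72% higher. Gnl3 also fell by 0.45 (SE 0.08) in cycling-like cells, against 2.1% and 1.96%. These counts of 2, 2 and 1 members are shares near the background.

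In the fit with genotype and number as a block, Ddx21 and Wdr43 differed between genotypes in their Th22 over Th17 change. The block was set from how these same libraries deviated, and without it neither difference passed. Ddx21, a nucleolar RNA helicase, stood at 167 and 230.0 CPM in KO Th22 against 311 and 389.7 CPM in KO Th17, and at 274 and 233 CPM in WT Th22 against 262 and 179 CPM in WT Th17. Wdr43, a small subunit processome protein, stood at 96.4 and 138 CPM in KO Th22 against 155 and 255 CPM in KO Th17, and at 178 and 141 CPM in WT Th22 against 168 and 98.6 CPM in WT Th17. For both genes both same-numbered KO pairs were lower in Th22 and both WT pairs higher. With the block, Th22 over Th17 in KO was -0.66 ± 0.07 for Ddx21 (SE, edgeR adjusted p = 0.00013) and -0.62 ± 0.08 for Wdr43 (adjusted p = 0.00027). In WT it was 0.23 ± 0.07 for Ddx21 (edgeR adjusted p = 0.053) and 0.31 ± 0.08 for Wdr43 (adjusted p = 0.018).

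The difference between genotypes, KO minus WT, was -0.89 ± 0.10 for Ddx21 and -0.93 ± 0.11 for Wdr43 (SE, edgeR with the block, adjusted p = 0.00094 each). These 2 of 34 members were called lower, against 2.56% of 13412 genes lower and 1.54% higher. Without the block the interaction called 0 members in edgeR, against 0% of genes higher and 0% lower, with 2 members at an unadjusted p below 0.05 and 0 called by DESeq2.

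Within each genotype alone, with the block, 9 of 34 members were called in Th22 over Th17 KO cells, all lower, against 8.69% of genes lower and 8.22% higher. In WT cells 1 was called higher and 3 lower, against 6.21% and 6.71% of genes. The 3 were Nle1 (-0.29), Rrs1 (-0.34) and Nip7 (-0.26). Without the block edgeR called 0 members in KO, against 0.0746% of genes higher and 0.0447% lower, and 0 in WT, against 0.0969% and 0.0522%. There were 3 and 0 members at an unadjusted p below 0.05 and 0 and 0 called by DESeq2. KO over WT within Th22 and within Th17 called 0 and 0 members in edgeR, against 0.0596% of genes higher and 0.0895% lower in Th22 and 0.0522% and 0.134% in Th17. The medians were 0.33 in Th22 and 0.34 in Th17, with 4 and 3 members at an unadjusted p below 0.05 and 0 and 0 called by DESeq2.

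Of the pathway lists, Th22 over Th17 over both genotypes called Myb, a transcription factor counted here with the Myc network (-1.14 ± 0.21, SE, edgeR adjusted p = 0.033), and Odc1, the enzyme that starts polyamine synthesis (-0.91 ± 0.10, adjusted p = 0.0035), both lower in Th22. None of the other genes tested in the 6 lists was called. Myb was 1 of 13 tested genes of the Myc network and Odc1 1 of 43 growth targets. Over all 13412 genes 1.01% were higher and 0.925% lower.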

How the data were processed

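The deposited matrix holds UMI counts per gene and cell for 8 libraries made with the 10x 3′ v3 kit, per the labels' protocols. The deposited cell table gives the authors' mitochondrial percent, S and G2/M scores and cluster of each cell; the sources used here do not say how the authors made them. Cell Ranger 5.0.1, Seurat and the build mm10 appear in the submitters' processing notes.

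Cells with at least 500 genes and at most 10% mitochondrial counts were kept (101688 of 104660). Doublets were not removed and no caller was run. The summed B cell marker list is not reported here. Counts were summed per library, and per library and cluster or phase, and given as CPM. Phase was the higher score if above 0, otherwise G1. Sums were tested with edgeR 4.0.16 in R 4.3.3 (quasi-likelihood F test, TMM, filterByExpr, robust) with Benjamini-Hochberg adjustment over all genes at 0.05; DESeq2 1.42.0 was an alternative. Phase fits had the library as a block. The test code was tested on simulated counts. Cluster ratios used a pseudocount of 1 CPM and genes of at least 1 CPM. Coordinates and promoters come from RefSeq tables of GRCm38.p6, the assembly that mm10 names.

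The members, lists and tests were chosen with earlier results of these data known. The genes named by rule are Myc, Ncl, Npm1, Nop56, Fbl, Polr1a and Polr1b, members called between genotypes or polarizations, the 3 largest and 3 smallest cluster ratios, the 3 smallest p in each phase comparison, at most 4 called genes per list and comparison, and 9 partners of Myc or polymerase I. Other members were named after their values were seen. Same-numbered libraries of 1 genotype deviated together from their group means over 13412 genes (r = 0.57 in KO, 0.23 in WT), which set the block within genotype; same-numbered libraries of KO and WT did not (r = -0.25 to -0.18). Alternatives covered normalization, test, filter, thinning, depth, cells kept, pairing and each library left out.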

Additional observations from a re-analysis of the deposited data

Results flagged for a closer look

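For Ddx21 and Wdr43 the KO over WT log2 fold change differed between Th22 and Th17 (Th22 minus Th17), by -0.89 and -0.93, in the fit with genotype and number as a block. Without the block neither difference passed, at -0.86 ± 0.33 and -0.92 ± 0.47 (SE, edgeR adjusted p = 1.0 for both). Leaving out each library in turn without the block gave -1.17 to -0.60 for Ddx21 and -1.31 to -0.50 for Wdr43. Among 22 sets of values, the summed levels and 7 members within each genotype and 4 median cluster ratios, 0 had a library far from the others.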

How the results depend on the processing

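Depth limits the scarce members most: Polr1b was not tested inside cluster 3. In KO over WT over all cells the count of members called was 3 with DESeq2, against 0. Pairing KO number 1 with WT number 2 and the reverse, chosen after seeing the data, gave 11 calls over both polarizations, 2 in Th22 and 5 in Th17, all higher, against 6.23%, 1.54% and 2.36% of genes higher; the pairing was picked to match the opposite numbering, so these counts support nothing. The block within genotype was also set from these data. It gave 4 calls in Th22 over Th17, 9 in KO, 4 in WT, 2 for the interaction and 2, 2 and 1 inside clusters 0, 1 and 3. The replicate number as a block across genotypes gave 0 calls in KO over WT over all cells and 0 in cluster 0.

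Inside clusters KO over WT gave 5, 7 and 10 calls in clusters 0, 1 and 3 with no low-count filter (all higher, against 0.804%, 3.41% and 1.01% of genes), 0 and 2 in clusters 0 and 1 on thinned cells (against 0.357% and 2.33% higher), and 0 and 0 with libraries summed by genotype and number (against 0% and 0.756%). Th22 over Th17 gave 1 and 1 calls in clusters 1 and 3 with no filter, both lower, against 1.63% and 0.871% of genes. G2/M over G1 gave 12 calls thinned (3 higher and 9 lower, against 19.8% and 21.4%), 6 in cluster 0 and 11 in cluster 1. The median ratio of cluster 1 over cluster 0 was 1.14 with a pseudocount of 5 CPM, and the summed member level averaged 2429 CPM without Npm1.

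Leaving out each library gave 0 to 3 calls in KO over WT over all cells, 0 to 2, 1 to 14 and 0 to 4 in clusters 0, 1 and 3, and 0 to 1 in Th22 over Th17 in cluster 1 (1 without KO Th22 2, against 1.42% of genes lower). It turned the sign of Myc (-0.21 to 0.17) and Ncl (-0.0231 to 0.22) in KO over WT, and in Th22 over Th17 of Fbl (-0.0783 to 0.11), Myc (-0.13 to 0.27), Ncl (-0.15 to 0.0935), Nop56 (-0.22 to 0.18), Npm1 (-0.0395 to 0.11), Polr1a (-0.21 to 0.0320) and Ppan (-0.47 to 0.00532). Myc in KO over WT, near 0, also turned to 0.0278 thinned, 0.000586 with all deposited cells, 0.0197 without the 8% of cells with most UMIs, 0.00196 without clusters 7, 9 and 11, 6.23e-05 with DESeq2 and 0.00484 summed by genotype and number. In Th22 over Th17, thinning turned Fbl to -0.0358, Myc to -0.00903 and Npm1 to -0.00919, and depth as a covariate turned Ncl to 0.0846, Nop56 to 0.21, Npm1 to -0.11, Polr1a to 0.0832 and Ppan to 0.0178. Npm1 in G2/M over G1 was 0.0400 within cluster 1. The cause was not tested for any of these. Of the values of single members under all alternatives, 712 kept direction and call, 43 lost and 23 gained the call and 41 changed sign.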
